A study of Mus musculus with 8 samples.

Results

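The data described here are the gene expression profiles of 4 control mouse hearts, taken alone, as a description of which genes gave the brightest signal in an adult heart, which members of a gene family were seen, and how far the 4 hearts differed from each other. The 4 samples were those titled as control hearts, of 8 heart samples in the series; the other 4, labelled dtg, carried a Cre transgene with floxed IGF-1R alleles (merCremer/+ IGFloxP/IGFloxP) and are not analysed here. All control mice were male C57BL6 animals, positive for Cre and negative for the floxed IGF-1R gene, so the labels give no deleted gene in them. They had received 4OH-tamoxifen, 500 µg in peanut oil on each of 10 consecutive days at an age of 8 months, and the hearts were removed 6 weeks later. The controls therefore share a Cre transgene and a drug treatment, and they are not untreated wild-type hearts. The labels do not state that each sample came from a separate animal, and they do not say whether atria and ventricles were both taken.

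Heart muscle contracts by sliding actin filaments past myosin filaments inside the sarcomere, and the troponin and tropomyosin proteins on the actin filament make this depend on calcium. Calcium is released from the sarcoplasmic reticulum through the ryanodine receptor and pumped back by the SERCA pump, which phospholamban restrains. The ATP for both steps comes mostly from fatty acid oxidation and oxidative phosphorylation, so mitochondria fill much of the cell. Many of these proteins exist as isoforms from separate genes, of which atria, ventricles, skeletal muscle and non-muscle cells use different ones.

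RNA was measured on 1-colour arrays, and levels are given as log2 of the processed signal minus the 75th percentile of that array, so that 0 is the signal of the 75th percentile and 1 unit is a 2-fold difference in signal. That percentile lay between 738 and 1027 intensity units, between 59.1% and 69.3% of probes were well above background on an array, and no spot was saturated. A gene was kept if it had a probe well above background on all 4 arrays, and its brightest such probe was used. This left 18527 features, that is genes or unnamed probes, and 13062 had a usable gene symbol. Controls 1 and 2 shared 1 slide (slide 1) and controls 3 and 4 another (slide 2). Pearson's r between hearts, across genes, was 0.9960 for controls 1 and 2 and between 0.9803 and 0.9851 for every other pair. Genes are not independent replicates, and the first pair shared a slide; controls 3 and 4, which also shared a slide, had an r of 0.9851.

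Probes differ in how well they bind and label, so the order of genes by signal is an order of probe signals and not of RNA amounts. The scale of this was read from the 3350 genes with a symbol and at least 2 kept probes: the brightest and the dimmest kept probe of the same gene differed by a median of 1.95 on the log2 scale, with quartiles of 0.84 and 3.40, a 90th percentile of 4.91 and a largest value of 12.9. Differences between genes smaller than these are within what probes of 1 gene can differ by.

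All 4 markers of cardiomyocytes, the contracting cells, were in the brightest 10% of kept genes. Actc1, which encodes cardiac alpha actin, had the highest signal of all named genes, at 9.39, 9.25, 9.19 and 9.04 in controls 1 to 4 (mean 9.22 ± 0.14, SD, n = 4). Tnnt2, cardiac troponin T, was at 8.83, 8.65, 8.95 and 8.76, and Myh6, the alpha myosin heavy chain of the adult mouse heart, at 8.84, 8.75, 8.76 and 8.76. Atp2a2, the SERCA pump of heart muscle, was at 7.40, 7.28, 7.33 and 7.24. Actc1 had the widest range between hearts of the 4 markers, 0.35, and the tissue named in the labels was matched by its defining genes.

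The promoter sequences of the cardiac actin and alpha myosin genes are shown because these genes were at the top of the signal range, and that of Nppa, atrial natriuretic peptide, because it was both bright and variable (its values follow below). Each run is the RefSeq table's window for GRCm38.p6, from 250 bases before to 50 bases after the annotated start, 5′ to 3′ on the gene's strand, and capitals mark TATAAA, the letters of the TATA box that TATA-binding protein recognises. Actc1 lies on the minus strand at chr2:114052826-114053125, Myh6 on the minus strand at chr14:54966558-54966857, and Nppa on the plus strand at chr4:148000472-148000771.
Actc1: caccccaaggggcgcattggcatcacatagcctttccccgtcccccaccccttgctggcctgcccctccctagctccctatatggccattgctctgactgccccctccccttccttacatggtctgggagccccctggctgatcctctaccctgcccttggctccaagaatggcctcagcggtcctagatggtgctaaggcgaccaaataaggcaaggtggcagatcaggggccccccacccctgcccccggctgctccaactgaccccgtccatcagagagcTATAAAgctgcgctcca
Myh6: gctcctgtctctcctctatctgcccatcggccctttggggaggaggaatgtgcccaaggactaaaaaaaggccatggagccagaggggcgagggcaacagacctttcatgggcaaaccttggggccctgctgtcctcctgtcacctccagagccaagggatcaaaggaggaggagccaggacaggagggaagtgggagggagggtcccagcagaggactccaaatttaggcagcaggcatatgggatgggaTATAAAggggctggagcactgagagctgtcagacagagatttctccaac
Nppa: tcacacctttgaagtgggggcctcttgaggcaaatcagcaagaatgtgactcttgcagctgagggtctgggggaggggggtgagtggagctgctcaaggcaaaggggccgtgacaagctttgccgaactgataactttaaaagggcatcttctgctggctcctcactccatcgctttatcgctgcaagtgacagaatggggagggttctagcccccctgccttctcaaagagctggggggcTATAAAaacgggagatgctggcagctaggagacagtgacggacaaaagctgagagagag
The 6 letters began at base 284 of the window in Actc1, at base 252 in Myh6 and at base 242 in Nppa. In Actc1 and Myh6 they therefore lie after the annotated start that places the window, and in Nppa before it. Searched on both strands (TATAAA or TTTATA), the letters were present in 13.6% of the 32851 promoter windows of the table. Of the 30 brightest genes, 27 had a window, and 5 of their 36 windows (13.9%) held it, those of Actc1, Myh6, Myl2, Med16 and Slc10a1.

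The 30 brightest named genes spanned a narrow range, from 9.22 for Actc1 down to 8.26 for Tpt1, with the next gene at 8.25. On the linear scale the signal of Actc1 was 596 times, and that of the 30th gene 306 times, the 75th percentile of an array. The sarcomere supplied Actc1, Myh6, Tnnt2, the ventricular myosin light chains Myl3 and Myl2, and tropomyosin 1 (Tpm1), and Mb, which encodes the oxygen store myoglobin, had a mean of 8.84. Myl3 was at 9.24, 9.16, 9.09 and 9.08 in controls 1 to 4. Myl2 was at 8.87, 8.78, 8.77 and 8.83. Both light chains varied little, with SDs of 0.072 and 0.049.

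Energy supply was the other large group. Slc25a4, the heart and muscle isoform of the mitochondrial ADP/ATP carrier, was at 9.11, 9.05, 8.99 and 9.08. Fabp3, which carries fatty acids in the cytosol of heart muscle, was at 8.69, 8.59, 8.74 and 8.54. Cytochrome c oxidase, the last complex of the respiratory chain, contributed Cox6a2, Cox7a1 and Cox4i1 with means of 8.69, 8.46 and 8.40. The ATP synthase genes Atp5g1 and Atp5b had means of 8.43 and 8.30, and Mdh2, the mitochondrial malate dehydrogenase, 8.35. Glycolysis was present through Aldoa (8.78) and Gapdh (8.54). Chchd10, a mitochondrial intermembrane space protein, and Crip2, a LIM domain protein, had means of 8.44 and 8.30.

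Hba-a2, an alpha globin gene of red blood cells, also belonged to the 30, at 8.37, 8.71, 8.66 and 9.18 in controls 1 to 4. It had the largest SD among the 30, 0.34, against a median of 0.096 for the 30. The other kept genes of the erythroid list, Hba-a1, Hbb-b2, Alas2, which starts haem synthesis in red cells, and Slc4a1, an anion exchanger, were also highest in control 4, so that 5 of 5 kept genes were highest there, against 37.1% of all kept genes and features. The 2 alpha globin genes are near-identical copies that a probe may not tell apart. Fewer cells of a type and less RNA per cell cannot be told apart in whole tissue.

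**Figure D1:**
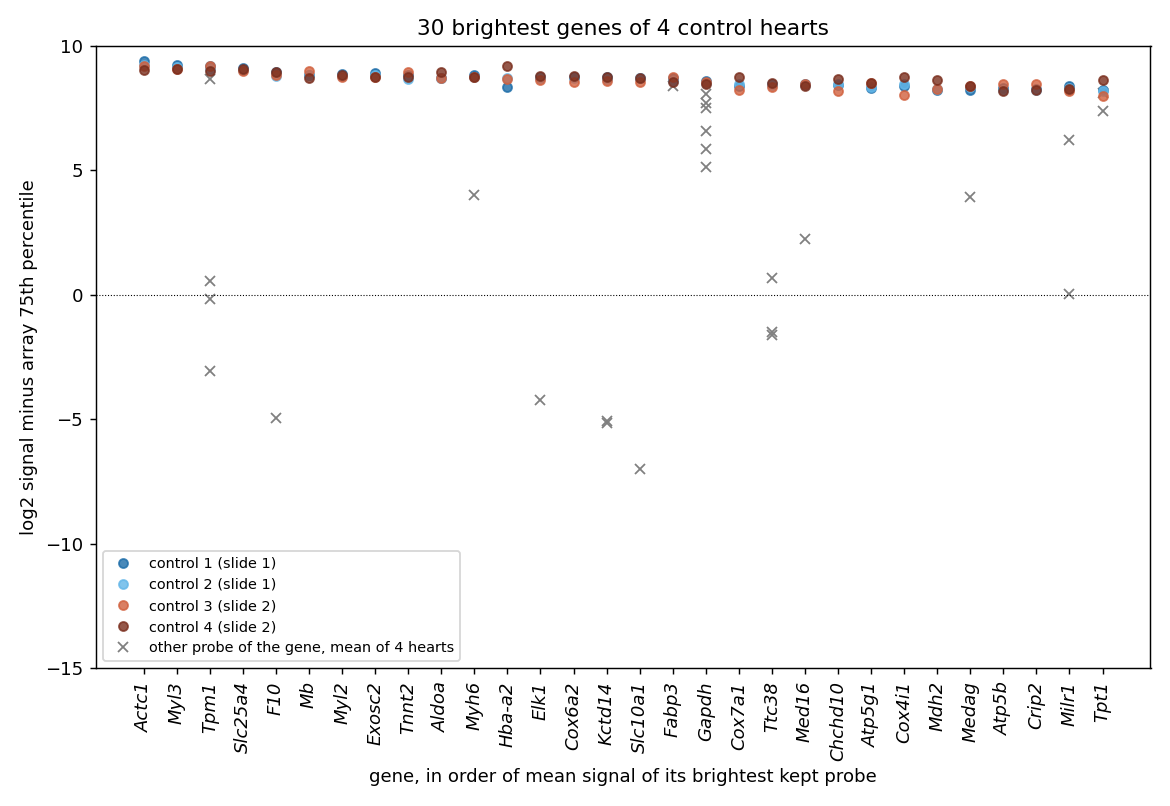
Signal of the 30 brightest named genes in each of the 4 control hearts (points; vertical axis, log2 signal minus the array's 75th percentile) in order of their mean, with the mean of every other probe of the same gene as a grey cross. The hearts' points lie on top of each other near 8 to 9, while crosses for F10, Elk1, Kctd14 and Slc10a1 lie below -4.

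Several symbols among the 30 rest on a single probe that other probes of the same gene did not match. Of the 30 genes, 17 had 1 probe on the array and 13 had more. The next brightest probe was within 2 log2 units in 4 of these (Tpm1, Fabp3, Gapdh and Tpt1), between 2 and 4 units dimmer in Milr1, and 4 or more units dimmer in 8. Those 8 were Myh6, F10, Elk1, Kctd14, Slc10a1, Ttc38, Med16 and Medag. Elk1, an ETS transcription factor, read 8.72 on 1 probe and -4.21 on the other. F10, coagulation factor X of the liver, read 8.89 and -4.96, and Slc10a1, the bile acid transporter of hepatocytes, 8.67 and -6.97. Kctd14 read 8.68 with its other probes near -5.08 and -5.13. For all 8 genes, and for Milr1, the bright probe alone puts them among the 30. The next brightest probe read 4.02 for Myh6, 0.68 for Ttc38, 2.26 for Med16, 3.93 for Medag and 6.22 for Milr1. Those of Gapdh and Tpt1, at 8.07 and 8.11, lay just below the 30th gene at 8.26. Of the 6 liver markers 2 were kept, Apoa2 at 0.86 and Serpina1a at -2.42, and 3 were above background on no array. Which RNA the bright probes read was not tested.

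Probes of well-known heart genes could differ as much. The second probe of Myh6, annotated to the same transcript as the first, read 4.02, which is 4.75 below it. Gapdh, with 7 probes to 1 transcript, ran from 8.54 down to 5.15. Tpm1 had 5 probes: the pair annotated to 1 transcript read 9.11 and 8.66, and the probes annotated to other transcripts 0.55, -0.18 and -3.05. A rare transcript and a probe that labels poorly cannot be told apart from such means. Above the 30th gene lay 9 further features without a usable name.

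Gene lists put these single genes in context. Of the 95 oxidative phosphorylation genes on the array, 94 were kept, with a median level of 6.67, against -0.45 for all 18527 kept genes and features, and 81 lay in the brightest 10%. The tricarboxylic acid cycle list had 19 of 19 kept at a median of 6.17, all in the brightest 10%, with Mdh2 at 8.35 and Sdhb, a subunit of succinate dehydrogenase, at 7.88 as the brightest. Fatty acid oxidation had 20 of 20 kept at a median of 5.86, led by Fabp3 and by the thiolase Acaa2 at 7.97. Cytosolic ribosomal proteins had 79 of 80 kept at a median of 6.07, led by Rplp0 (7.57) and Rps14 (7.55), whereas mitochondrial ribosomal proteins had 77 of 78 kept at 3.44 and the proteasome 37 of 39 at 3.60.

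Some list members were dim. In the oxidative phosphorylation list the lowest were Cox7b2 at -4.91, Ndufaf5, an assembly factor, at -1.45, and Cox6b2, known as the testis isoform, at -1.08. Among cytosolic ribosomal proteins Rpl39l, the testis-enriched copy of Rpl39, was at -4.90. At the other end, the cell cycle list had 9 of 12 kept at a median of -2.10, with Mki67, a marker of dividing cells, at -1.09 as the brightest.

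**Figure D2:**
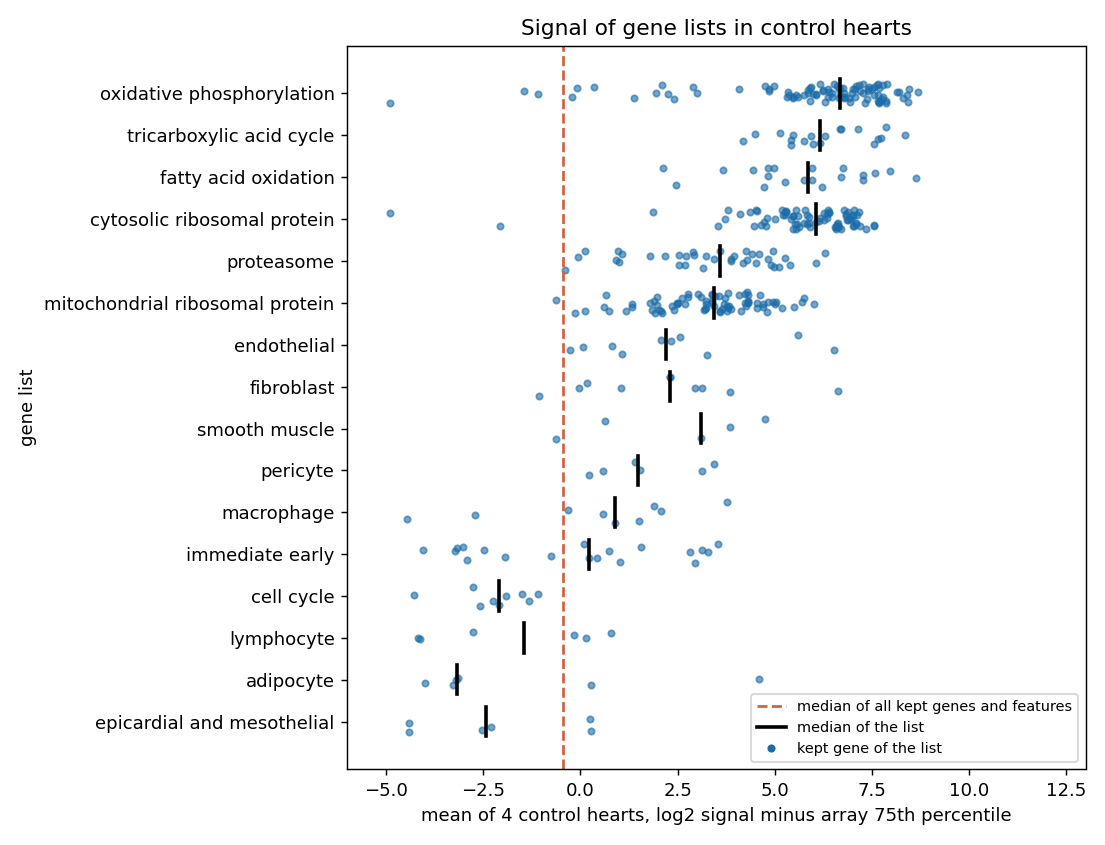
Mean signal of the kept genes of 16 gene lists over the 4 control hearts (points; horizontal axis, log2 signal minus the array's 75th percentile), with the list's median as a black bar and the median of all kept genes and features, -0.45, as a dashed line. Oxidative phosphorylation, the tricarboxylic acid cycle, fatty acid oxidation and cytosolic ribosomal proteins have medians between 5.86 and 6.67, and the cell cycle, lymphocyte, adipocyte and epicardial lists have medians below -1.

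Isoform signals were compared within 55 gene families, of which 52 had at least 2 kept members. The difference between the brightest and the next member was a median of 2.20 on the log2 scale and ran from 0.02 to 9.04. The same member was the brightest of the pair in all 4 hearts in 43 families. The difference was larger than the median spread between probes of 1 gene in 30 families and larger than the 90th percentile of that spread in 10. These counts describe signals, and no test was made between probes.

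Troponin C gave the widest separation of the 52 families. Tnnc1, troponin C of slow and cardiac muscle, exceeded the fast skeletal Tnnc2 by 8.75, 8.74, 9.57 and 9.09 in controls 1 to 4 (mean difference 9.04 ± 0.39). Tnni3, cardiac troponin I, was at 7.79 and exceeded the fast skeletal Tnni2 by 8.32 ± 0.30, and Tnni1, the slow skeletal form also used by the foetal heart, was at -4.06. Tnnt2 exceeded the slow skeletal Tnnt1 by 6.47 ± 0.16, and the fast form Tnnt3 was at -4.22. In each of the 3 troponin families the member known from heart was the brightest in 4 of 4 hearts.

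Actin and myosin were less clear-cut. Actc1 exceeded the next actin, the non-muscle Actb, by 2.30 ± 0.32, while Acta1, skeletal alpha actin, was at 5.04 ± 0.44 with its lowest value, 4.43, in control 3. The smooth muscle actins Acta2 and Actg2 were at 3.86 and -1.89. Among myosin heavy chains, Myh7, the beta isoform of slow muscle and of the foetal mouse ventricle, was at 7.03, 7.23, 6.40 and 7.30, below Myh6 in each heart. Myh8, the perinatal isoform, lay between them by its mean, at 7.14 on its brighter probe and at 1.09 on the other, so its place in the order holds for 1 probe only. With the mean of all kept probes Myh7 led the family, because the second Myh6 probe was dim.

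Ventricular light chains gave more signal than atrial ones. The ventricular Myl3 and Myl2 led, with means of 9.14 and 8.81, and the difference between them, 0.33 ± 0.06, was small although its sign was the same in 4 of 4 hearts. The atrial forms Myl4 and Myl7 had means of 6.18 and 3.64 but SDs of 1.75 and 1.87. Tropomyosin was led by Tpm1, which exceeded Tpm3 by 5.35 ± 0.08 on its brightest probe. With the mean of all kept probes Tpm1 minus Tpm3 was -0.74. Mybpc3, the cardiac myosin binding protein C, was at 8.03, and the next member of its family was Mybphl, an atrial gene, at 0.73 ± 2.04. Actn2, the alpha actinin of the Z-disc, was at 5.99 and exceeded the non-muscle Actn4 by 3.51 ± 0.26.

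For the calcium pump, release channel and store, the member known from heart was the brightest. Atp2a2 exceeded the skeletal SERCA pump Atp2a1 by 4.30 ± 0.11 on its brightest probe. The dimmer kept probe of Atp2a2 read 4.78, and with the mean of all kept probes the difference was 3.04. Pln, phospholamban, was at 6.31 ± 0.16, while Sln, sarcolipin, the regulator of SERCA in atria, was at 4.48 ± 2.20. Pln was above Sln in 3 of 4 hearts, and in control 4 the difference was -0.10. Ryr2, the cardiac ryanodine receptor, was the kept member of its family, at 4.14 ± 0.08, and Casq2, cardiac calsequestrin, exceeded Casq1 by 7.81 ± 0.36.

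In the exchanger and channel families the brightest member was another one. Slc8a3 read 2.49 and Slc8a1, the sodium calcium exchanger of heart muscle, -0.57. Cacna1s, the skeletal muscle L-type channel, read 2.07 on its brighter and -0.80 on its other kept probe, and Cacna1c, the cardiac L-type channel, -2.25. A second Slc8a3 probe was above background on 3 of 4 arrays and was not kept. In these families the brightest member read lower on another of its probes. Slc8a3 and Cacna1s still led by the mean of all kept probes and by the dimmest kept probe. These rules leave out the Slc8a3 probe that was not kept. Slc8a3 minus Slc8a1 was 3.05, and 4.21 with the mean of all kept probes. The order of the RNAs was not tested. Gja1, the main connexin of the working myocardium, led its family at 1.57, 1.23 ± 0.32 above the endothelial Gja4.

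Several glycolytic families were led by the isoform known from muscle. Pfkm exceeded Pfkl by 4.40 ± 0.18, Eno3, the muscle enolase, exceeded Eno1 by 3.00 ± 0.57, and Pgam2 exceeded Pgam1 by 2.68 ± 0.24. Ldhb, the lactate dehydrogenase subunit typical of heart, exceeded Ldha by 0.63, 0.60, 0.57 and 0.52 in controls 1 to 4, with an SD of 0.044 and the same sign in every heart, and with the mean of all kept probes the difference was 3.33. Slc2a4, the insulin-sensitive glucose transporter GLUT4, was at 5.92 and Slc2a1 at 0.83. Pygm, the muscle glycogen phosphorylase, exceeded Pygb by 1.30 ± 0.22. Hk1 exceeded Hk2 by 1.26, 1.06, 1.04 and 0.62 in controls 1 to 4 on its brightest probe, and with the mean of all kept probes Hk1 minus Hk2 was -1.18.

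Creatine and adenylate kinases, which move high-energy phosphate, were led by Ckmt2, the mitochondrial creatine kinase of striated muscle, at 8.05 ± 0.07 and by Ak1 at 6.71 ± 0.24. Ckm, the cytosolic muscle creatine kinase, followed at 5.57, 5.67, 5.57 and 4.97. Control 4 was low for Ckm and the other 3 hearts lay close together.

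Fatty acid use was led by Fabp3, which exceeded Fabp4, a gene of endothelium and fat, by 2.10 ± 0.29, and by Cpt1b, the muscle form of the enzyme that admits fatty acids to mitochondria, which exceeded Cpt1a by 3.90 ± 0.28. Ppara, the nuclear receptor that drives fatty acid oxidation genes, exceeded Ppard by 2.09 ± 0.36. With the mean of all kept probes that difference was 0.66, and by the dimmest kept probe of each gene Ppard led. Esrra exceeded Esrrb by 2.42 ± 0.23. Respiratory chain subunits with a heart or muscle isoform were led by it: Cox6a2 exceeded Cox6a1 by 2.03 ± 0.21, Cox7a1 exceeded Cox7a2 by 2.55 ± 0.12, and Cox8b exceeded Cox8a by 1.57 ± 0.13. The Cox8b difference was below the median spread of 1.95 between probes of 1 gene, and the Cox6a2 difference was close to it. Slc25a4, the ADP/ATP carrier of heart and muscle, exceeded Slc25a5 by 5.41 ± 0.27. Cox4i1, the common form, exceeded the hypoxia-linked Cox4i2 by 8.49 ± 0.44.

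Pdk4 and Pdk2, kinases that shut down pyruvate dehydrogenase, changed places between hearts. Pdk4, which rises with fasting, was at 3.49, 3.89, 4.51 and 4.61, and Pdk2 had an SD of 0.088 around 4.08. Pdk4 was thus below Pdk2 in controls 1 and 2 and above it in controls 3 and 4. Ucp3 and Ucp2 differed by 0.02 ± 0.19, Camk2d and Camk2g by 0.08 ± 0.27, and Akt1 and Akt2 by 0.14 ± 0.31, each less than its own SD between hearts. With the mean of all kept probes these differences were -1.50 for Ucp3 minus Ucp2, -1.58 for Camk2d minus Camk2g and 1.475 for Akt1 minus Akt2.

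Among signalling and stress genes, Igf2r, the lysosomal sorting receptor, was at 2.43, and Igf1r, the gene targeted elsewhere in the series and intact here, at 0.06, 0.10, 0.26 and 0.92 in controls 1 to 4. Insr, the insulin receptor, was at 0.03 ± 0.06. Igf1r was highest in control 4. Cryab, the small heat shock protein most abundant in heart, was at 8.19 and exceeded Hspb1 by 1.30 ± 0.14. With the mean of all kept probes that difference was 0.14, and by the dimmest kept probe Hspb1 led. Fhl2, the LIM protein of heart, exceeded Fhl1 by 8.94 ± 0.29, and Cav3, muscle caveolin, exceeded Cav2 by 3.02 ± 0.15. Of the cardiac transcription factors, Gata6 and Gata4 were at 2.27 and 1.86.

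**Figure D3:**
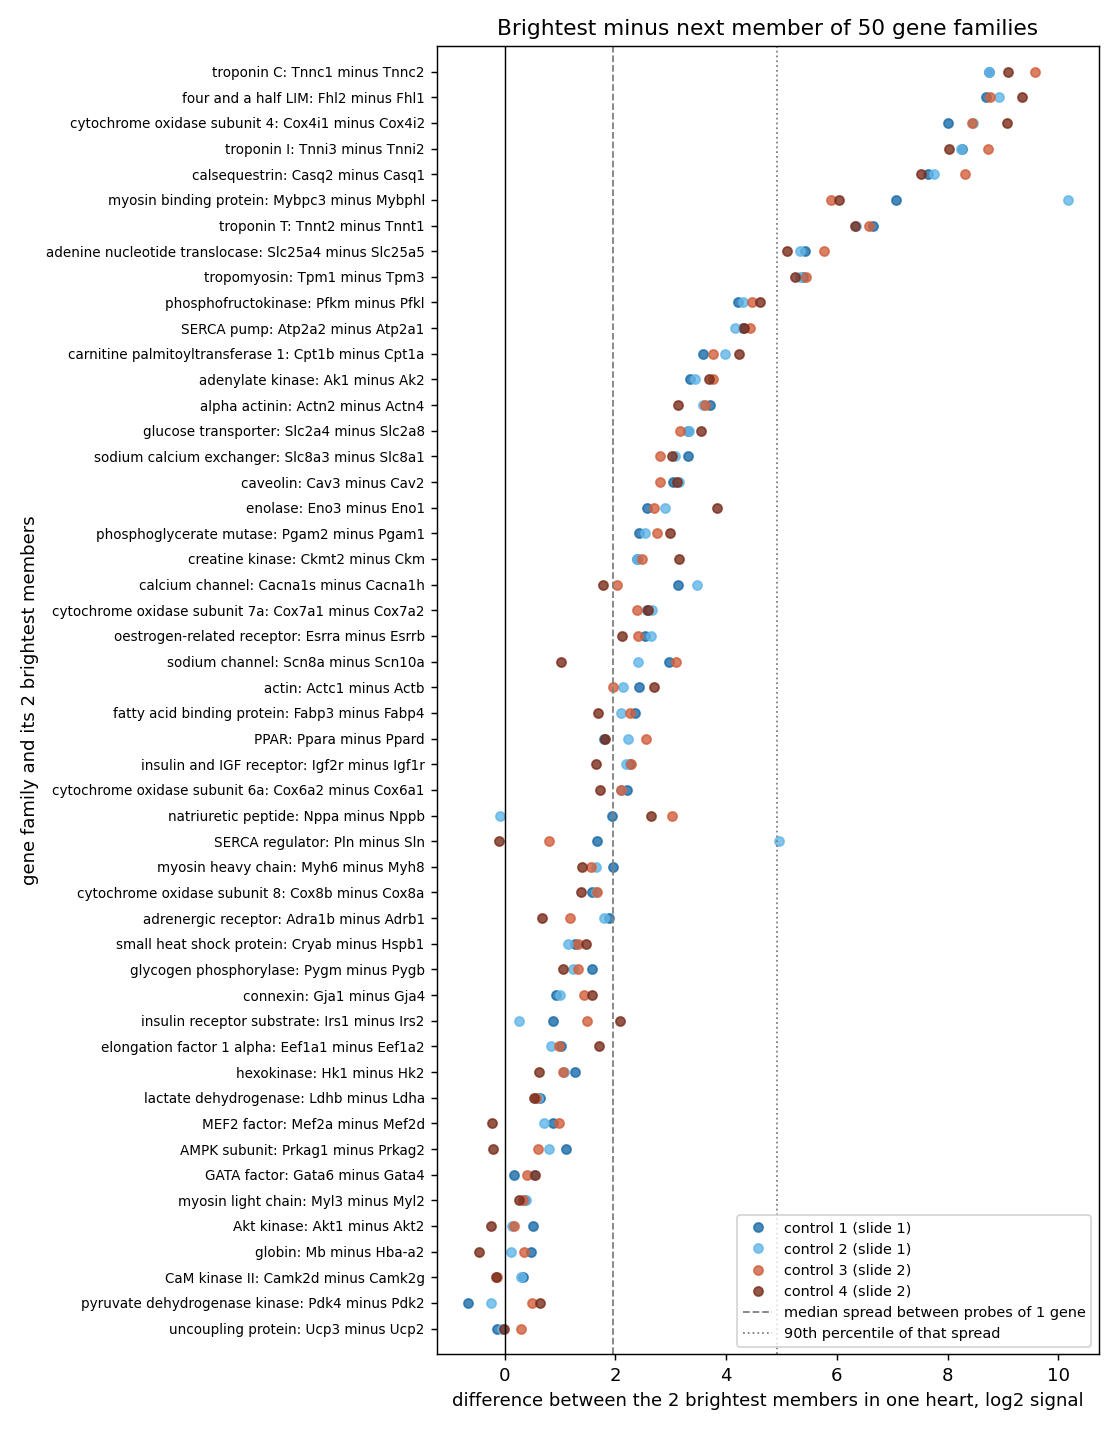
Difference in log2 signal between the brightest and the next member of 50 gene families, in each of the 4 control hearts (points), in order of the mean difference. The dashed and dotted lines are the median, 1.95, and the 90th percentile, 4.91, of the spread between kept probes of 1 gene; 29 of these families lie beyond the first and 9 beyond the second, and the pairs Pln and Sln, Nppa and Nppb, and Mybpc3 and Mybphl spread most between hearts.

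The other cells of the heart were visible at lower signal. Endothelial genes had 10 of 10 kept at a median of 2.20, led by Fabp4 at 6.54 and Egfl7, a secreted endothelial protein, at 5.60. Fibroblast genes had 10 of 10 kept at a median of 2.30, led by the proteoglycan decorin (Dcn) at 6.62 and Col1a2 at 3.84. Smooth muscle genes had 5 of 6 kept at a median of 3.09, pericyte genes 6 of 6 at 1.47, macrophage genes 9 of 9 on the array at 0.89, led by the receptor Csf1r at 3.78, and lymphocyte genes 6 of 9 at -1.46. Signals of this kind do not give cell shares.

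Lung and thymus, which lie next to the heart, gave few detected genes. In the lung list 1 of 6 genes on the array was kept, the surfactant protein gene Sftpd at -3.74, and 4 were above background on no array. The thymus list had 2 of 6 kept, with 3 above background on no array. For fat, Adipoq, which defines adipocytes, was at -4.11, -3.03, -2.71 and -2.97, and 6 of 6 kept adipocyte genes were lowest in control 1, as were 28.1% of all kept genes. All 6 were higher in both slide 2 hearts than in both slide 1 hearts, against 26.9% of all kept genes. The defining gene was dim in every heart. Mesothelial genes, which cover the outer surface, had 6 of 6 kept at a median of -2.42, and 6 of 6 were lowest in control 2, as were 14.4% of all kept genes.

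The 4 hearts differed by a median SD of 0.24 over all kept genes and features, and the highest heart exceeded the lowest by a median of 1.44-fold. More than 2-fold separated the hearts for 3465 genes (18.7%), more than 4-fold for 337, and more than 8-fold for 29. Probes that are spotted 10 times on each array give the noise between spots, which leaves out that of labelling, hybridisation and slide: over the 273 of them that were kept, the SD between spots within an array was a median of 0.069, and the SD between hearts of the means of 10 spots was 0.20. How much of the latter is technical was not tested. Dim genes varied more, with a median SD of 0.38 in the dimmest 10% and 0.18 in the brightest.

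**Figure D4:**
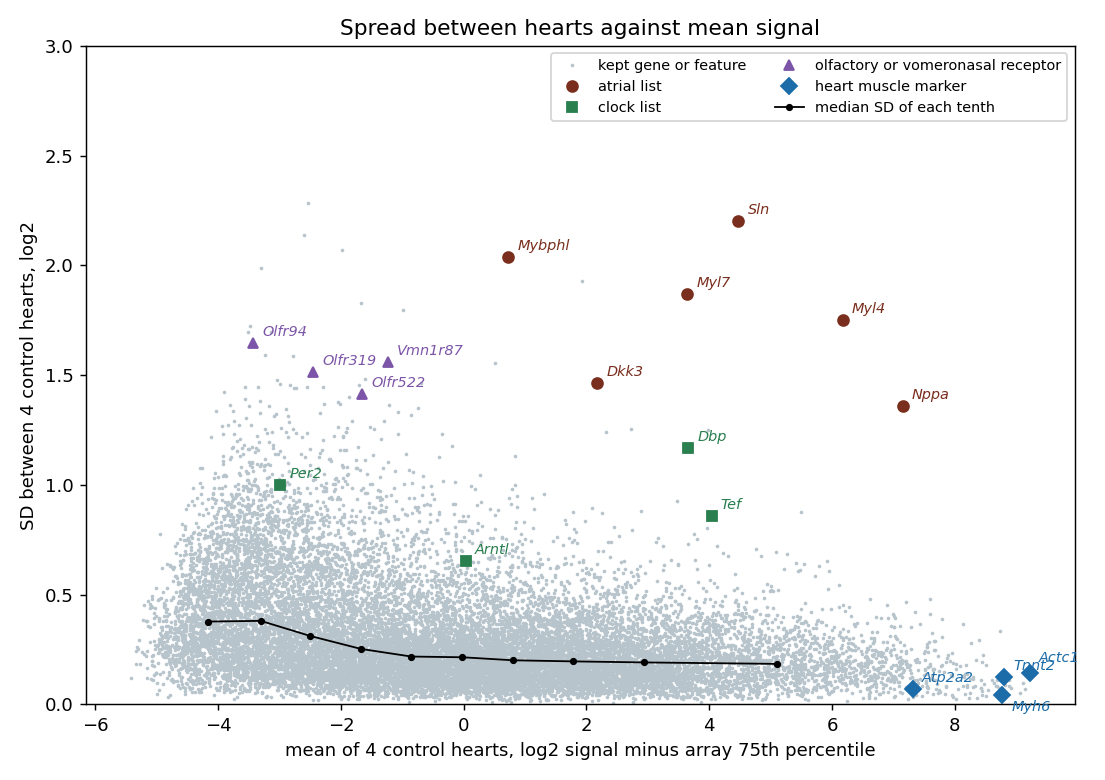
SD between the 4 control hearts (vertical axis, log2) against mean signal (horizontal axis, log2 signal minus the array's 75th percentile) for the 18527 kept genes and features, with the median SD of each 10% of them by signal as a black line. The labelled atrial genes, from Nppa (SD 1.36) to Sln (2.20), lie far above the line, at mean signals from 0.73 (Mybphl) to 7.15 (Nppa). The 4 labelled olfactory and vomeronasal receptors lie between -3.43 (Olfr94) and -1.23 (Vmn1r87). The heart muscle markers have SDs up to 0.14.

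Genes known from the atria were among the most variable. Sln was at 4.51, 1.37, 5.73 and 6.29 in controls 1 to 4, a 30.3-fold range. Myl7 was at 3.58, 1.04, 4.62 and 5.31, and Myl4 at 6.06, 3.78, 7.09 and 7.78. Control 2 was the lowest and control 4 the highest for each, and control 1 lay between control 2 and the slide 2 hearts. Nppa was at 7.24, 5.20, 7.98 and 8.17, a 7.84-fold range, and Mybphl at 0.80, -2.17, 2.03 and 2.25. Dkk3, a secreted Wnt pathway protein expressed in atria, was at 1.40, 0.61, 2.78 and 3.91.

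Over the whole atrial list, 14 of 14 genes were kept, the median SD was 0.76 and 11 of 14 were lowest in control 2, against 14.4% of all kept genes. The count was 11 under each of the other scalings tried, while the share of all genes lowest in control 2 moved between 14.4% and 28.6%. The exceptions were Bmp10, Kcna5 and Tbx5. Bmp10, a growth factor of the atrial wall, was at -4.80, -4.35, -3.76 and -3.67, lowest in control 1. Kcna5, the ultrarapid potassium channel, was highest in control 2, at 0.13. Tbx5 was lowest in control 4. The atrial list was also split by slide. In 12 of its 14 genes both slide 2 hearts were above both slide 1 hearts, against 26.9% of all kept genes. That count was 12 under each of the other scalings, while the share of all genes moved between 26.9% and 64.4%. Ventricular genes did not move with them: Myl2, Myl3, Irx4 and Hey2 had SDs between 0.049 and 0.23, and Myh7, with 0.41, was lowest in control 3. Without control 2 the SDs of Sln, Myl7, Myl4, Mybphl and Nppa fell to 0.91, 0.87, 0.87, 0.78 and 0.49. The epicardial and mesothelial list moved in the same way: 6 of its 6 genes, of which Upk3b is also on the atrial list, were lowest in control 2, and in 5 of 6 both slide 2 hearts were above both slide 1 hearts, against 26.9% of all kept genes. How much atrial tissue or epicardial surface each sample held is not in the labels, and its part in these differences was not tested. Nppb, B-type natriuretic peptide, was at 5.31, 5.29, 4.95 and 5.54, and Nppa minus Nppb was -0.09 in control 2 and above 0 in the other 3 hearts.

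Fgf12, an intracellular fibroblast growth factor homologue that binds sodium channels, followed the same order of hearts at low signal, at -2.37, -4.73, -0.84 and -0.02. Its second probe also varied, with an SD of 1.72 against 2.07. Mlana, known from pigment cells, was at -0.95, -2.65, 0.22 and 0.61, again lowest in control 2. Neither gene was on the atrial list.

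Clock genes made up another group. The circadian clock is a loop in which Arntl (BMAL1) and Clock activate genes with E-box promoters, among them Per and Cry genes that switch the loop off, and the output factors Dbp and Tef. Dbp was at 2.28, 3.11, 4.55 and 4.70 in controls 1 to 4, and Tef at 3.16, 3.58, 4.31 and 5.11. Arntl ran the other way, at 0.69, 0.47, -0.37 and -0.67. Both hearts of slide 1 were thus below both of slide 2 for Dbp and Tef and above them for Arntl. Cry2 was at 1.39, 1.46, 2.48 and 2.32, and Nfil3, which represses the targets of Dbp, at 0.89, 0.92, 0.27 and 0.40. Per2 was low in control 1 alone, at -4.47 against -2.64 to -2.37 in the other hearts.

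The E-box that Arntl and Clock bind is shown for Tef, the clock gene with the brightest signal. Both RefSeq windows of Tef on the plus strand (GRCm38.p6, chr15:81802423-81802722 and chr15:81811164-81811463) hold CACGTG, which reads the same on both strands and is in capitals.
Tef, upstream start: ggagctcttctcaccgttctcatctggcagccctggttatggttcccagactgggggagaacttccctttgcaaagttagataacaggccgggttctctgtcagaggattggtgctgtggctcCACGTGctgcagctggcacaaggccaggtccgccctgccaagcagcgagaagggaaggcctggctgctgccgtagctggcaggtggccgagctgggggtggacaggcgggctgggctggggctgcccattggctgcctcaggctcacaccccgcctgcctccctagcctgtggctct
Tef, downstream start: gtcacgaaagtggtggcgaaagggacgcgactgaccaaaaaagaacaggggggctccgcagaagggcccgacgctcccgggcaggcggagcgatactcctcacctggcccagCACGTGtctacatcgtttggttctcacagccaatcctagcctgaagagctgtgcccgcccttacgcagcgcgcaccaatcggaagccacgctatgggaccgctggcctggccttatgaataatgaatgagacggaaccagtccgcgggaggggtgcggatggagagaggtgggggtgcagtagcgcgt
It began at base 124 of the upstream and base 113 of the downstream window. CACGTG was present in 7.15% of all 32851 windows of the table. For the clock list, 13 of the 16 kept genes had a window, and 4 of their 18 windows (22.2%), in Tef, Per1 and Bhlhe41, held it. A match describes the letters of the window alone.

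Of the 19 clock genes on the array 16 were kept, with a median SD of 0.46. Both slide 2 hearts were above both slide 1 hearts in 9 and below them in 2, Arntl and Nfil3, against 26.9% and 27.4% of all kept genes. Under quantile normalization these counts were 8 and 2, against 33.1% and 21.9%. In limma's comparison of the slides, described below, none of the 16 passed an adjusted p of 0.05: Dbp differed by 1.93 ± 0.31 (SE, adjusted p = 0.0652), Arntl by -1.10 ± 0.19 (adjusted p = 0.0754) and Tef by 1.34 ± 0.32 (adjusted p = 0.132). Leaving out a heart of slide 1 gave limma adjusted p of 0.363 and 0.347 for Dbp and 0.552 and 0.487 for Arntl (without control 1 and 2). Leaving out a heart of slide 2 gave 0.00789 and 0.0122 for Dbp and 0.00434 and 0.0109 for Arntl (without control 3 and 4), where the residual spread comes from controls 1 and 2 alone and the lone heart is assumed to vary as they did. The hour at which each heart was taken is not in the labels, and its part was not tested.

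**Figure D5:**
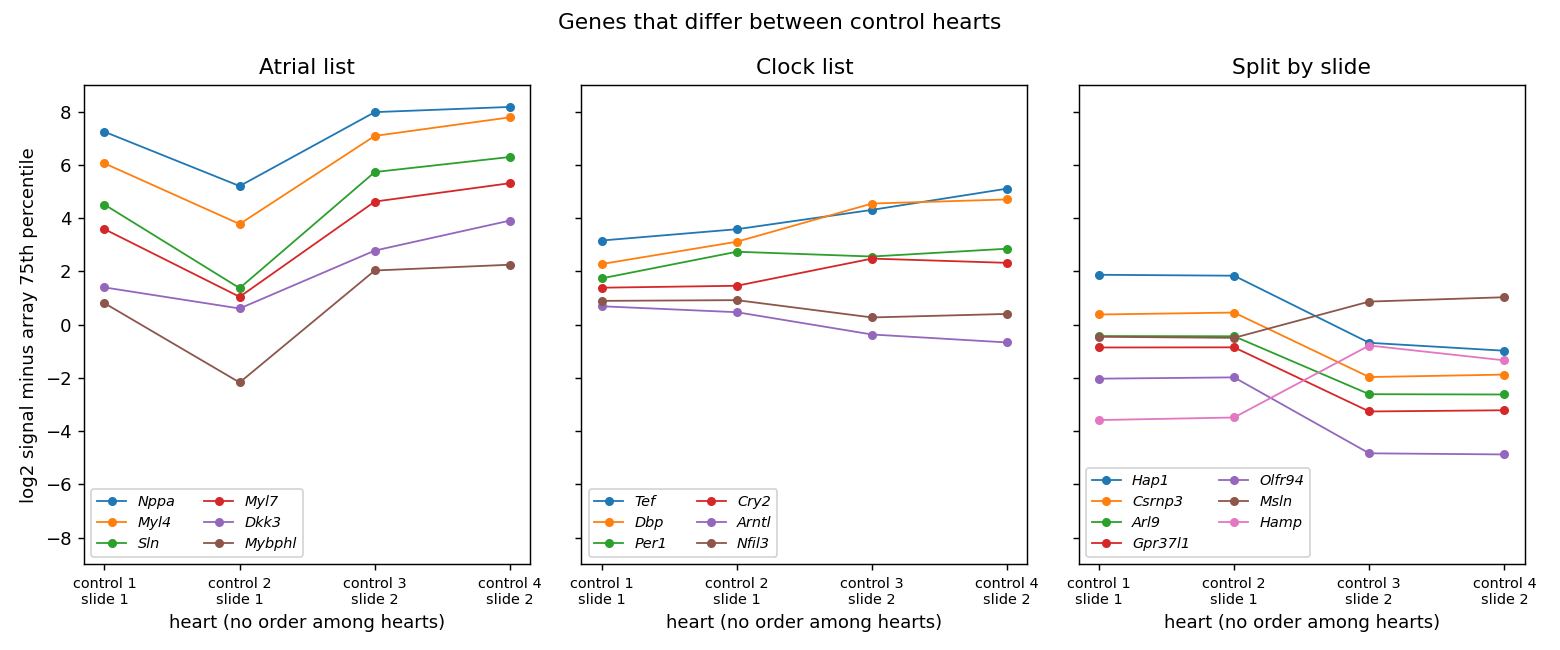
Signal of genes that differed between control hearts (vertical axis, log2 signal minus the array's 75th percentile; 1 point per heart, joined per gene only to guide the eye) for genes of the atrial list, of the clock list and genes that split by slide. The 6 atrial genes plotted are lowest in control 2 (11 of 14 in the whole list), Dbp and Tef lie higher and Arntl lower in controls 3 and 4, and Hap1 and Olfr94 lie higher in controls 1 and 2.

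Some stress and early response genes also differed between hearts. Hspa1a, the inducible heat shock protein 70, was at -1.83, 0.67, -2.50 and -1.21, highest in control 2. Its co-chaperone Dnajb1 was at 2.93, 3.98, 2.70 and 3.91, high in controls 2 and 4. The heat shock list had 11 of 11 genes on the array kept, with a median SD of 0.22 against 0.24 for all kept genes and features. Of the 11, 6 were highest in control 4 and 4 in control 2, against 37.1% and 19.4% of all. The immediate early gene Egr1 was at 0.17, -0.15, -0.07 and 1.75, and Fos at -3.22, -3.55, -3.98 and -1.95, both highest in control 4. The immediate early list had 19 of 22 kept, 10 of them highest in control 4, against 37.1% of all kept genes.

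Several other variable genes are given by the heart in which they were highest or lowest. Dixon's gap criterion, used further below, flagged Xlr3b and Fbxo40 among them as having 1 heart apart from the rest. Both were chosen for their SD over the same 4 values, so the flag is a description and adds no support. The X-linked lymphocyte-regulated genes Xlr4b, Xlr4a and Xlr3b were lowest in control 2, at -5.08, -5.53 and -4.89, against values from -3.75 to -1.71 in the other hearts; these genes are near-identical copies that a probe may not tell apart. Rnu2-10, a U2 spliceosomal RNA gene, and Snora74a, a small nucleolar RNA, were highest in control 4, at 0.83 and 0.40, against -3.36 to -1.53 and -2.94 to -2.13 in the other hearts. Fbxo40, a muscle-specific F-box protein, was low in control 4, at -4.07 against -1.43 to -1.17. Syt10, a synaptotagmin, had the largest SD of all named genes, 2.28, at 0.24, -3.57, -5.04 and -1.77, highest in control 1 and lowest in control 3. Slpi, a protease inhibitor of epithelia and myeloid cells, was highest in control 3, at 0.05.

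A further set of variable genes was dim and split by slide. Among the 186 genes and features with the largest SD (the top 1%), both slide 1 hearts were above both slide 2 hearts in 144 (77.4%) and below them in 18 (9.68%), against 27.4% and 26.9% of all. Their median level was -2.85, and 123 lay in the dimmest 30%. Olfactory and vomeronasal receptors, known from sensory neurons, were part of this: 78 of the 1326 symbols on the array were kept, with a median of -3.05 and a median SD of 0.70, and 61 were higher in both slide 1 hearts. Olfr94 was at -2.03, -1.98, -4.83 and -4.87, and Vmn1r87 at 0.02, 0.14, -2.07 and -3.00. Slide 1 also had the larger share of probes above background, 68.1% and 69.3% against 59.1% and 62.8%, and its part in these signals was not tested.

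The comparison of the slides, controls 3 and 4 minus controls 1 and 2, was tested with limma over all 18527 genes and features. It called 255 (1.38%) at an adjusted p of 0.05, of which 248 (1.34%) were lower and 7 (0.0378%) higher on slide 2; at an unadjusted p of 0.05 the counts were 2332 lower and 924 higher. The called genes were dim: 240 lay in the dimmer 50%, 1 in the brightest 10%, and their median level was -2.86. Of the olfactory and vomeronasal receptors 9 of 78 (11.5%) were called, all lower on slide 2. With 2 hearts per slide, a difference between slides and a difference between the hearts on them cannot be told apart.

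The 5 named genes lower on slide 2 with the smallest p were Olfr94, Gpr37l1, Hap1, Csrnp3 and Arl9, all with a limma adjusted p of 0.0277. Hap1, a huntingtin-binding protein known from neurons, was at 1.87, 1.84, -0.68 and -0.98, a difference of -2.69 ± 0.18 (SE). Gpr37l1, a receptor known from glia, was at -0.86, -0.85, -3.26 and -3.21. For both genes the slides did not overlap, which their choice by the smallest p favours. Both slide 1 hearts were above both slide 2 hearts in 27.4% of all kept genes and features. The other Hap1 probe read -4.14. Csrnp3 and Arl9 differed by -2.34 and -2.19.

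The 5 named genes higher on slide 2 with the smallest p were Hamp, Cacna1h, Cd207, Msln and Cyp2s1, with limma adjusted p between 0.0313 and 0.0389. Hamp, which encodes the iron hormone hepcidin, was at -3.58, -3.49, -0.78 and -1.34, a difference of 2.47 ± 0.23 (SE). Msln, mesothelin of the epicardial surface, was at -0.46, -0.50, 0.87 and 1.03, and Upk3b, on both the atrial and the mesothelial list, differed by 1.51 (adjusted p = 0.0414 in limma). Cd207, a marker of Langerhans cells and some other dendritic cells, was at -4.84, -4.67, -2.66 and -2.10. In the lymphocyte list Cd4, a T cell co-receptor, differed by -1.57 (limma adjusted p = 0.0399), and no gene of the other lists was called. Limma called 0 genes under quantile normalization, normexp background correction, median scaling and no filter on dim probes, where 3549, 3316, 8193 and 5740 had an unadjusted p under 0.05, and 0 without control 1 and without control 2 (1358 and 1445). It called 6167 without control 3 and 2633 without control 4.

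Genes that make proteins and energy were often highest in control 4. That was so for 63 of 79 cytosolic ribosomal protein genes and 62 of 94 oxidative phosphorylation genes, against 37.1% of all kept genes. The sizes were small: the median deviation of control 4 from the gene's mean was 0.26 for ribosomal proteins and 0.14 for oxidative phosphorylation. Under quantile normalization the counts fell to 43 and 34, against 36.7% of all genes, which for oxidative phosphorylation is 36.2% of the list.

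Within the brightest 10% the most variable genes, after Sln, Myl4, Nppa and Tef, were Foxl2, Fam219a, Acacb, Ogfod1, Ccdc138 and Sema4c. Acacb, the acetyl-CoA carboxylase that restrains fatty acid entry into mitochondria, was at 4.19, 4.55, 4.51 and 5.79, high in control 4, and its other probe read 0.20. Foxl2 was at 4.57, 4.66, 2.98 and 3.64 on a probe whose partner read -4.31.

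The steadiest genes were of medium signal. Cacna2d1, the alpha-2/delta subunit of calcium channels, was at 2.42, 2.43, 2.41 and 2.43, an SD of 0.0077 and a 1.01-fold range. Ten1, a telomere protein, and Zfp764, a zinc finger protein, followed with SDs of 0.0091 and 0.010, then Flad1, which makes FAD, with 0.011. The 15 steadiest genes had SDs up to 0.020, below the median of 0.069 between repeated spots within an array. In the brightest 10% Des, the desmin of the muscle intermediate filament, was at 4.54, 4.56, 4.50 and 4.53, with an SD of 0.022, and Psap, a lysosomal precursor protein, had 0.024.

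Of 20 genes in common use as references, 19 were measured. Their SDs ran from 0.042 to 0.44 with a median of 0.18, and 13 were below the median of all genes. Bright genes vary less, and 8 of the 19 were above the median SD of their own 10% of genes by signal. Gusb was the steadiest, at 0.89, 0.85, 0.94 and 0.85. Gapdh was at 8.61, 8.53, 8.57 and 8.45. Actb was at 6.98, 7.11, 7.23 and 6.35, low in control 4, B2m at 5.01, 4.47, 4.59 and 4.02, and Tfrc at -0.27, -0.45, -1.04 and -1.18. Actb, B2m, Tfrc and Rpl32 had a range of more than 1.5-fold between control hearts.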

How the data were processed

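Total RNA from 4 control hearts (100 ng each) was labelled and hybridised to 1-colour arrays, per the labels' protocols. The deposited spot intensity had its local background subtracted by the scanner software (Agilent Feature Extraction, version 10.7.3.1), per the file headers, which name mm9 as annotation build. The spot quality marks were used as deposited. The authors' deposited log2 table was used as an alternative only. It was set beside log2 processed signal quantile-normalized over the 4 controls, both centred per probe over these 4 arrays, and r was 0.9978 to 0.9986. The deposited column medians were -0.0154, -0.0168, 0.0323 and 0.0178. The sources used here do not give the steps behind it, and its 4 columns of other samples were not used.

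Control and outlier spots were dropped, repeated spots of 1 probe averaged, and each array's 75th percentile was subtracted on the log2 scale. Of 39429 probes, 22699 were well above background on all 4 arrays; 13060 probes had no symbol. Gene names are the RefSeq symbols matched to the transcript identifier that the array gives for each probe. Slides were compared by limma's lmFit and eBayes (limma 3.58.1, R 4.3.3), with Benjamini-Hochberg adjustment over 18527 features and a threshold of 0.05. On simulated data for that comparison, over 18527 genes, 0%, 0%, 32% and 72% of changes of 0.5, 1, 2 and 4 log2 units were recovered, with 1 false call. The labels do not say that samples came from separate animals, so SDs and p-values cover the spread of these 4 samples, part or all of which may be technical, and their number limits the precision.

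Named were the 4 markers, the 30 brightest and 30 most variable genes, the 15 least variable, 10 each within the brightest 10%, family and list members, and up to 5 genes per direction by p in the slide comparison. Members and lists were chosen with earlier results of these data known. Alternatives were other background corrections (normexp with an offset of 50), scalings, filters and probe rules, and leaving out each heart. A few family members are not reported here.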

Additional observations from a re-analysis of the deposited data

Results flagged for a closer look

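Of 221 genes examined, 15 had 1 heart far from the other 3 by Dixon's gap criterion for 4 samples. The 221 were genes named in the text, some of them for their large SD over the same 4 hearts. Chance flags about 1 in 20 groups, here 11.05 genes, if the genes are not chosen by their values, and the same 4 hearts enter each gene. The heart apart was control 4 in 8 genes, 5 of them high and 3 low.

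Control 4 was high for the glycolytic Aldoa (8.97, against 8.70 to 8.72 in the other hearts), Mdh2 of the tricarboxylic acid cycle (8.65, against 8.21 to 8.27), the respiratory subunit Cox7a2 (6.17, against 5.82 to 5.83), the calcium release channel Ryr2 (4.265, against 4.09 to 4.12) and the non-muscle actinin Actn4 (2.84, against 2.34 to 2.38). It was low for creatine kinase Ckm (4.97, against 5.57 to 5.67), the nuclear receptor Rora (-0.91, against -0.43 to -0.33) and the F-box gene Fbxo40 (-4.07, against -1.43 to -1.17).

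Control 3 was high for Crip2 (8.48, against 8.22 to 8.25) and the caveolin Cav2 (1.37, against 1.10 to 1.13) and low for Slc10a1 (8.55, against 8.70 to 8.72). Control 2 was high for Cox8b (7.98, against 7.80 to 7.83) and low for Xlr3b (-4.89, against -2.16 to -1.82). Control 1 was high for Myh6 (8.84, against 8.75 to 8.76) and low for the clock gene Per2 (-4.47, against -2.64 to -2.37). Of these, Fbxo40, Xlr3b and Per2 had the widest gaps, and for Myh6 the gap was small on an SD of 0.043.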

How the results depend on the processing

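No paired analysis was possible because 1 group alone was analysed. Between 21 and 30 of the 30 brightest genes, and 43 to 52 of 52 family leaders, were shared under the alternatives run; the lowest count of leaders was by the dimmest kept probe (chosen after seeing the data), and with the mean of all kept probes it was 45. The median SD of 0.24 fell to 0.15 with normexp and quantile normalization, and to 0.19 with normexp without dark spots, those darker than their local background. The background mean that normexp fitted for control 4 was -1740 with all spots and 10.9 without dark spots. The values given for normexp with all spots rest on the first of these fits. Of the 30 most variable genes 18 were shared with normexp, 19 with normexp without dark spots, 4 with no filter on dim probes, 15 with the median absolute deviation, and 18 to 27 when a heart was left out (18 without control 2).

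Of the limma slide calls, 255 at 0.05 became 757 at a threshold of 0.1, 69 with normexp without dark spots, 26 in the deposited log2 values, and 0 with quantile normalization, normexp, no filter or median scaling. Leaving out a heart gave 0 to 6167, with 1 lone heart assumed to vary like the others. Normexp without dark spots (12 spots in control 4 and 2 in control 1 lay below their local background), and median scaling of the slide comparison, were chosen after seeing the data.

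These family differences reversed with the mean of all kept probes: Tpm1 minus Tpm3 (-0.74), Hk1 minus Hk2 (-1.18), Ucp3 minus Ucp2 (-1.50), Camk2d minus Camk2g (-1.58), Irs1 minus Irs2 (-1.52) and Mef2a minus Mef2d (-0.49). Pdk4 minus Pdk2 and Ucp3 minus Ucp2 were -0.24 and -0.50 with normexp, and -0.25 and -0.56 without dark spots. Leaving out each heart in turn gave a range of -0.15 (without control 4; -0.10 without control 3) to 0.29 for Pdk4 minus Pdk2 and of -0.069 (without control 3) to 0.073 for Ucp3 minus Ucp2. It gave -0.00078 (without control 1) to 0.17 for Camk2d minus Camk2g and -0.0042 (without control 1) to 0.31 for Mb minus Hba-a2. The cause was not tested. Signal close to background limits the dim genes.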

Other observations

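A set of bright probes shared 1 order of hearts, control 3 above control 1 above control 2 above control 4. Of the 93 genes and features with the top 5% of SDs in the brightest 10%, 26 (28.0%) had it, against 5.02% of the brightest 10% and 5.37% of all. The order was picked after it was seen in these genes, so the shares are a description only. Ccdc138, a coiled-coil protein, was at 5.28, 5.11, 6.18 and 4.52 in controls 1 to 4. Luc7l2, a splicing factor, was at 5.93, 5.73, 6.78 and 5.35, and Ubtf, which activates ribosomal RNA genes, at 5.48, 5.30, 6.29 and 4.82. Sp110, an interferon-induced nuclear body protein, was at 5.67, 5.54, 6.52 and 5.13. The other probe of Ccdc138 read -5.60, that of Luc7l2 -1.50 and that of Ubtf -1.06. The next brightest probe of Sp110 read -0.11. Ogfod1, which had the same order of hearts, read -1.48 on its other probe. For these genes the bright signal rests on 1 probe.

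Genes of the glucocorticoid and fasting response were kept for 15 of 15, with a median of 1.79. Angptl4, an inhibitor of lipoprotein lipase that rises with fasting, was at 1.04, 1.21, 2.25 and 1.84. Cdkn1a, a cell cycle inhibitor, was at 1.04, 1.15, 0.12 and -0.07. In the list both slide 2 hearts were above both slide 1 hearts in 5 of 15 and below them in 2, against 26.9% and 27.4% of all kept genes, and no gene of this list was called in the limma slide comparison.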
